A study of Mus musculus with 6 samples.

Results

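The genes described here encode integrins, cadherins, protocadherins, catenins, tight junction and desmosome proteins, keratins, vimentin and a few regulators of the epithelial or mesenchymal state. They were chosen by their symbols, from probe sets that carry exactly 1 gene symbol, and 82 of the 10366 genes with such a probe set qualified. Each of the 82 was read by 1 probe set. The cells came from mouse bone marrow and were sorted as LKS-Slam cells, which are negative for lineage markers, positive for Kit and Sca-1 and sorted again on SLAM surface markers, so that hematopoietic stem cells are strongly enriched. One group of 3 arrays is labelled Zeb2-KO and came from mice with the genotype Zeb2Δ/ΔMx1-Cre, obtained from Zeb2 fl/fl Mx1-Cre animals. The other 3 arrays are labelled C57Bl/6 WT. All the mice received the interferon inducer pIC at 6 weeks of age, and marrow was taken 8 weeks later, at 14 weeks. The Mx1 promoter answers to interferon in many cell types, so deletion is not limited to stem cells. The WT genotype names neither the floxed allele nor Mx1-Cre, so Zeb2 deletion, the recombinase and the floxed background cannot be told apart here.

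Integrins are heterodimers of an alpha and a beta chain that bind matrix or counter-receptors on other cells, and in bone marrow they hold stem cells and megakaryocytes to their surroundings. Cadherins join like cells and are tied to actin through catenins, tight junctions are built from claudins, JAM proteins and the ZO scaffolds, and desmosomes tie desmosomal cadherins to keratin filaments. Zeb2 is a zinc-finger repressor, known from epithelial-mesenchymal transition for silencing E-cadherin and other junction genes through E-box motifs, so these genes are the classical readout of Zeb activity. The E-cadherin gene Cdh1 was not analysed here. Nor were Cdh5, Ocln, Krt8, Krt19, Dsp, Itgam, Itgb2, Itgb7, Ctnna1 and Esrp1.

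Zeb2 itself had log2 intensities of 7.79, 9.13 and 8.96 in the Zeb2-KO-labelled arrays and 6.58, 7.51 and 7.34 in WT. It thus lay higher in the group named for its loss, with no overlap (difference 1.48, SE 0.40, limma adjusted p = 0.581), so each "higher" or "lower" in the text compares the Zeb2-KO-labelled arrays with WT and takes the labels as given. Which part of the gene the probe set reads is not given in the sources used here, so it checks the deletion only if it lies in the deleted part. Of 6 measured gate genes, 3 lay higher and 3 lower (median 0.042). Kit stood at 10.18 ± 0.047 in the Zeb2-KO-labelled arrays and 9.65 ± 0.57 in WT (SD, n = 3). In the same order Slamf1 stood at 8.54 ± 0.41 and 7.24 ± 1.28, and Flt3 at 6.69 ± 0.63 and 6.00 ± 0.13. Cd48, which SLAM gates commonly select against, stood at 6.46 ± 0.64 and 7.48 ± 0.26. Cd34 had 7.30 ± 0.86 and 7.99 ± 0.15, and Procr 6.44 ± 0.21 and 6.89 ± 0.17. WT replicate 1 correlated least with the other arrays, with a mean correlation of 0.841 against 0.886 to 0.908. Markers of erythroid cells lay higher in 7 of 7 cases (median 0.96) and those of B cells lower in 15 of 15 (median -0.61). Those of stroma and endothelium lay lower in 10 of 11 (median -0.34). Over all probe sets 44.6% lay higher and 55.4% lower. In these directions 4, 5 and 1 of the markers had an unadjusted p under 0.05 in limma. Of all probe sets 5.69% did so on the higher side and 1.33% on the lower. Below the median level lay 3, 4 and 7 of them, and of all probe sets there 74.3% lay lower (median -0.23). The part of these cells in the values below was not tested. Y-linked genes were raised in 1 array of each group, replicate 1 in both. The labels call the samples biological replicates without saying how many mice each came from.

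None of the 82 genes passed an adjusted p of 0.05 in limma's moderated test over all 14610 probe sets, where 2 (0.0137%) passed as higher and none as lower. The smallest adjusted p was 0.563, for Krt18. At an unadjusted p under 0.05, 8 of 82 (9.76%) lay higher in the Zeb2-KO-labelled arrays, against 5.69% of all probe sets, and none lay lower, against 1.33%. In order of p they are Krt18, Tjp1, Itga6, Ctnnd1, Ctnnb1, Jam2, Itgb3 and Cldnd1. The 3 arrays of a group lay entirely above the other 3 in 10 genes (12.2%, against 6.9% of all probe sets) and entirely below in 6 (7.32%, against 6.26%). An unadjusted p under 0.01 with a change of at least 1.5-fold was reached by Krt18 alone, or 1.22% of the genes against 1.35% of all probe sets. That count was 6 when WT replicate 2 was left out and 0 when Zeb2-KO replicate 1 was. The count of 8 was 4 without Zeb2-KO replicate 2, Zeb2-KO replicate 3 or WT replicate 3. The share of all probe sets in those fits is not given here, so these shifts cannot be read as particular to the 82 genes.

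Over the 82 genes 20 (24.4%) lay higher and 62 (75.6%) lower, against 44.6% and 55.4% of all probe sets, and the sign went with the level of the gene. A probe set is called brighter here when its mean over the 6 arrays was at or above the median of all tested probe sets (log2 6.63) and dimmer when it was below. That mean takes in both groups, so for a gene near the median its difference helps to set its class. Of the 82 genes, 20 were brighter and 62 dimmer. Among the brighter, 15 of 20 lay higher in the Zeb2-KO-labelled arrays, with a median difference of 0.52 (log2), whereas all brighter probe sets had a median of 0.18, with 63.5% higher. An unadjusted p under 0.05 was reached on the higher side by 7 of the 20, against 8.69% of all brighter probe sets, and 6 were without overlap, against 10.4%. On the lower side none of the 20 did either, against 1.62% and 3.52%. Among the dimmer, 57 of 62 lay lower, with a median of -0.28, close to the median of -0.23 over all dimmer probe sets, of which 74.3% lay lower. On the higher side 1 of the 62 (Jam2) had an unadjusted p under 0.05, against 2.68%, and 4 were without overlap, against 3.35%. On the lower side 6 were without overlap, against 9.01% of all dimmer probe sets. The 5 dimmer genes with a higher value were Jam2, Itgb1bp1, Dsg2, Dsc2 and Epcam. The 5 brighter genes with a lower value were Vim, Snai1, Krt12, Krt14 and Krt87.

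**Figure D1:**
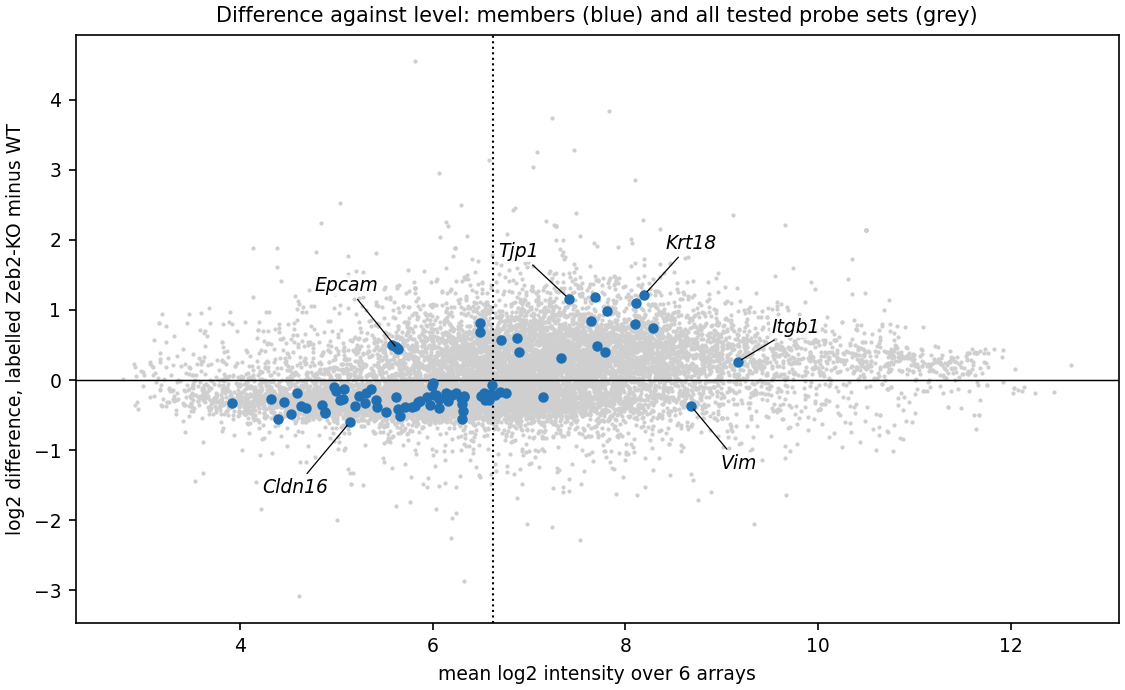
Difference (log2, labelled Zeb2-KO minus WT) against the mean log2 intensity over 6 arrays, for the 82 genes (blue) and all 14610 tested probe sets (grey), with the median level of 6.63 as a dotted line. Of the 62 blue points left of the line 57 lie below 0, and of the 20 at or right of it 15 lie above.

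The arrays differed in the spread of their values, and the median of the dimmer genes largely followed it. The array medians were nearly equal (log2 6.56 to 6.63). A wider array therefore places probe sets below the median lower in any case, and the order of the dimmer genes is no separate result. The interquartile range of log2 values was 1.83, 2.40 and 2.11 in the Zeb2-KO-labelled arrays and 1.59, 2.03 and 1.77 in WT, a mean of 2.11 ± 0.28 against 1.79 ± 0.22 (SD, n = 3). The median of the dimmer genes was 5.86, 5.48 and 5.65 in the Zeb2-KO-labelled arrays and 6.15, 5.67 and 5.76 in WT, so the array of widest spread was the lowest and that of narrowest spread the highest. WT replicate 1 alone held the highest value of 44 of the 62 dimmer genes, and Zeb2-KO replicate 2 the lowest value of 37. All dimmer probe sets had medians of 5.77, 5.54 and 5.63 against 5.90, 5.70 and 5.77, with the same arrays lowest and highest. The median of the brighter genes was 7.67, 8.14 and 7.93 against 7.16, 7.69 and 7.05. There WT replicate 2, with a wider spread than Zeb2-KO replicate 1, reached the level of that array. The brighter genes did not follow the spread throughout, since WT replicate 3 lay below WT replicate 1, the array of narrowest spread. After adjustment for array spread (the interquartile range as a covariate) the median of the dimmer genes moved to 0.033 with 26 of 62 lower, and that of the brighter genes to 0.33 with 16 of 20 higher, while the median of all brighter probe sets was -0.0013. In that fit 2 of the 82 genes lay higher at an unadjusted p under 0.05 (Krt18 and Itga2b) and 1 lay lower (Pcdh7), beside 2.51% and 2.63% of all probe sets.

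**Figure D2:**
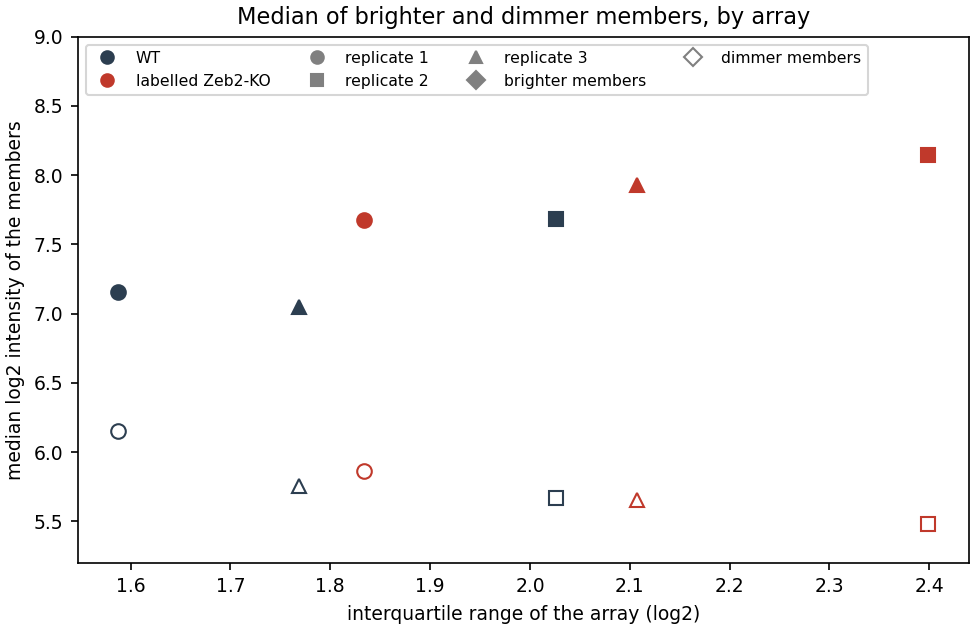
Median log2 intensity of the 20 brighter genes (filled) and the 62 dimmer genes (open) against the interquartile range of each array (log2), with 1 symbol per array. The open symbols run from 6.15 at the narrowest array (WT replicate 1) to 5.48 at the widest (Zeb2-KO replicate 2), and the filled ones lie between 7.05 and 8.14.

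Keratins form the intermediate filaments of epithelia. Krt18, the type I keratin that pairs with Krt8 in simple epithelia, had 9.09, 8.33 and 9.0 in the Zeb2-KO-labelled arrays and 7.32, 7.90 and 7.55 in WT. All 3 of the former lay above all 3 of the latter, and Zeb2-KO replicate 2 was the nearest to WT. The difference was 1.22 (SE 0.32), or 2.32-fold, with a 95% interval of 0.52 to 1.91 and an adjusted p of 0.563 in limma. It was 1.33 after adjustment for array spread and 1.03 with quantile normalization, and it ran from 1.08 to 1.45 when 1 array was left out. The other 14 keratins all lay lower, at a median of -0.23, but 1 of them turned higher with quantile normalization and 11 after adjustment for array spread (median 0.061). Krt4, of stratified mucosal epithelia, was the member with the smallest p among these, at 4.65 ± 0.11 against 5.12 ± 0.14 (difference -0.47, adjusted p = 0.673), without overlap. Krt86, a hair keratin, spanned 4.56 to 5.92 in the Zeb2-KO-labelled arrays and 5.06 to 5.75 in WT.

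The stretch before the start site is shown for Krt18 and Epcam, because both are epithelial genes whose groups did not overlap and whose promoters hold the E-box that Zeb proteins bind, and for Tjp1, the junction gene next to Krt18 in order of p, whose promoter does not. The letters come from RefSeq (GRCm38.p6), are the 250 bases before the annotated start written 5′ to 3′ on the gene's strand, and carry CACCTG or its reverse complement CAGGTG in capitals. These 3 were chosen after their values were seen.
Krt18 (chr15:102027966-102028215, plus strand): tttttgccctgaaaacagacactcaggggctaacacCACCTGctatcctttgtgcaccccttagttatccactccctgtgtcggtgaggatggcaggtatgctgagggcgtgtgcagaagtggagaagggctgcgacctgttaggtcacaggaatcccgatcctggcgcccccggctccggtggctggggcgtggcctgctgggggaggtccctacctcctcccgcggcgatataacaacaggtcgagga
Epcam (chr17:87635729-87635978, plus strand): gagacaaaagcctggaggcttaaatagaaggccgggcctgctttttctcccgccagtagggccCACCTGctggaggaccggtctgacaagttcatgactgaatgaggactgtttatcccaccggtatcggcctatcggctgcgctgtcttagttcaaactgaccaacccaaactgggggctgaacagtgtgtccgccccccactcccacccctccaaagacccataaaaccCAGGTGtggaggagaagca
Tjp1 (chr7:65371245-65371494, minus strand): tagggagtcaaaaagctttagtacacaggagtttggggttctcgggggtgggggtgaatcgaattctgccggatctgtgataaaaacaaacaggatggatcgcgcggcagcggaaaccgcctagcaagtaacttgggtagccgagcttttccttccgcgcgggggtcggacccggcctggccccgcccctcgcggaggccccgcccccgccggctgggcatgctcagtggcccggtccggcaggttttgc

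The hexamer begins 214 bases before the start in Krt18, and 187 and 19 bases before it in Epcam. The promoter table held 48 of the 82 genes, with 55 windows of 300 bases, of which 11 held the hexamer on either strand. Among all promoters 6640 of 32851 windows did, or 20.2%, a share that the 82 genes did not exceed. The 11 genes were Cldn4, Cldn6, Cldn7, Epcam, Grhl3, Itga9, Itga11, Krt18, Krt23, Pcdh7 and Snai1. Of these 9 lay lower in the Zeb2-KO-labelled arrays, and 3 after adjustment for array spread. Of all 82 genes 75.6% lay lower, but that share takes in the genes without a window, so the sets are not alike. Among the 8 genes of smallest p on the higher side, 5 had windows, and 1 of their 7 windows held it, that of Krt18.

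Catenins link cadherins to the cytoskeleton. Ctnnb1, beta-catenin, which is also the transcriptional effector of Wnt signalling, had 7.82, 8.33 and 8.75 in the Zeb2-KO-labelled arrays and 7.14, 7.94 and 6.89 in WT, a difference of 0.98 (SE 0.36, adjusted p = 0.662). Ctnnd1, p120-catenin, which holds cadherins at the membrane, had 8.07, 8.21 and 7.92 against 7.0, 7.75 and 6.93 (difference 0.84, SE 0.31, adjusted p = 0.659). Ctnnd1 did not overlap between groups, and WT replicate 2 was the highest WT array in both genes, above Zeb2-KO replicate 1 for Ctnnb1. After adjustment for array spread the differences were 0.56 and 0.57. Ctnnal1, an alpha-catenin relative, had one of the widest scatters, with 7.32, 9.29 and 8.23 against 5.96, 7.94 and 7.38 (difference 1.19, SE 0.56), and its difference was -0.034 after adjustment for array spread. Ctnnbl1, a nuclear protein of the splicing machinery that shares only the name, lay at 0.40.

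Of 16 tight junction genes, 4 lay higher and 12 lower, but 12 lay higher after adjustment for array spread. Tjp1, the scaffold ZO-1, had 8.38, 8.07 and 7.53 in the Zeb2-KO-labelled arrays and 6.45, 7.63 and 6.43 in WT, a difference of 1.16 (SE 0.39), or 2.24-fold (adjusted p = 0.633). The groups overlapped only through WT replicate 2 and Zeb2-KO replicate 3, and the difference was 0.92 after adjustment for array spread and 1.09 with quantile normalization. Jam2, an adhesion molecule of endothelium that is also known from hematopoietic stem cells, had 6.64, 6.86 and 6.99 against 6.16, 6.51 and 5.76 (difference 0.69, SE 0.30, adjusted p = 0.673), without overlap. Cldnd1, a claudin-domain protein, had 8.36, 8.59 and 8.57 against 7.49, 8.49 and 7.13, a difference of 0.80 that was 1.20 without WT replicate 2. Cldn12 stood apart from the other numbered claudins at 6.23, 7.07 and 7.66 against 6.67, 6.70 and 5.91 (difference 0.57, and 0.23 without Zeb2-KO replicate 3). The remaining 12 numbered claudins lay lower, from Cldn16 (-0.60, adjusted p = 0.673) to Cldn13, a claudin known from mouse erythroid cells (-0.13). With quantile normalization 3 of the 13 numbered claudins lay higher, and after adjustment for array spread 9 did, Cldn13 among them in both. Cldn15 had 6.19, 5.70 and 5.74 against 6.29, 6.19 and 6.33, and these groups touched but did not overlap.

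**Figure D3:**
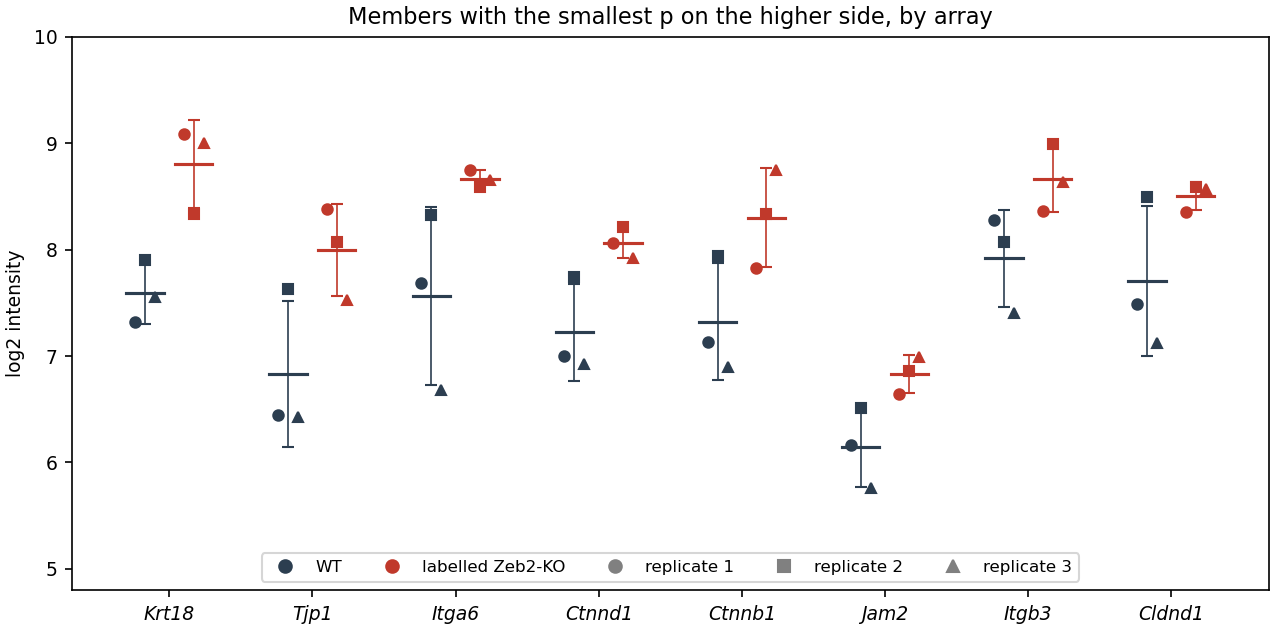
Log2 intensity by array for the 8 genes with the smallest p on the higher side (WT dark, labelled Zeb2-KO red, 1 symbol per replicate number, bars for mean ± SD, n = 3). Krt18, Itga6, Ctnnd1, Jam2 and Itgb3 do not overlap between groups, and WT replicate 2 is the highest WT array in all but Itgb3.

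Of 13 integrin alpha chains 4 lay higher and 9 lower, and of 3 beta chains 2 lay higher and 1 lower. The 6 brighter chains lay on the higher side and the 10 dimmer ones on the lower side, but the split is not independent of the difference. By the WT mean alone Itga5 (6.58) would be dimmer, and Itgav (6.65) and Itga10 (6.69) brighter. After adjustment for array spread Itga4 and Itgb1 turned lower and 5 of the 10 dimmer chains turned higher, and with quantile normalization 2 dimmer chains did. Itga6, the laminin-binding chain of stem and progenitor cells and of megakaryocytes, had 8.75, 8.59 and 8.66 in the Zeb2-KO-labelled arrays and 7.69, 8.33 and 6.68 in WT. The 3 former arrays had an SD of 0.081 and lay above a WT group with an SD of 0.83. The difference was 1.10 (SE 0.39), or 2.14-fold (adjusted p = 0.656), and 0.65 without WT replicate 3. Itgb1, its partner and the commonest beta chain, had 8.96, 9.87 and 9.06 against 8.63, 9.55 and 8.94, with a difference of 0.26 (95% interval -0.53 to 1.04). Its value was highest in replicate 2 of each group. Itgb4, the other partner of Itga6, known from hemidesmosomes, lay at 6.09 ± 0.26 against 6.53 ± 0.19 (difference -0.44), without overlap.

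The fibrinogen receptor of platelets pairs Itga2b with Itgb3. Itgb3 had 8.37, 8.99 and 8.63 in the Zeb2-KO-labelled arrays and 8.28, 8.07 and 7.40 in WT (difference 0.75, SE 0.33, adjusted p = 0.673). Itga2b had 8.09, 7.95 and 7.94 against 7.83, 7.43 and 7.54 (difference 0.39, SE 0.27, adjusted p = 0.673). Neither overlapped between groups, but the gap between the groups was narrow in both. Itgb3 was 0.49 without WT replicate 3, and Itga2b was 0.17 with quantile normalization and 0.55 after adjustment for array spread. Beside them, 9 of 11 other megakaryocyte and platelet genes lay higher, at a median of 0.89, and 9 of the 11 were brighter. Among all brighter probe sets 63.5% lay higher (median 0.18). The mean log2 level of the 11 genes ran from 7.59 to 8.46 in the Zeb2-KO-labelled arrays and from 6.63 to 7.03 in WT. Pf4, a granule chemokine gene, stood at 10.76 ± 0.52 against 8.55 ± 1.34, a difference of 2.21 that only Ppbp (3.28) exceeded among the 11. Gp9 (-0.094) and Mmrn1 (-0.056) lay lower. An unadjusted p under 0.05 in limma was reached on the higher side by 5 of the 11, against 5.69% of all probe sets and 8.69% of the brighter. The part of those cells in the integrin values was not tested, and in sorted bulk RNA more cells of a type and more RNA per cell cannot be told apart.

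Itga4 and Itga5 belong to the receptors that anchor stem cells to VCAM-1 and fibronectin. Itga4 had 7.52, 8.27 and 8.06 in the Zeb2-KO-labelled arrays and 6.63, 8.22 and 7.56 in WT, a difference of 0.48 that was 0.061 without WT replicate 1. Itga5 had 7.09, 7.13 and 7.31 against 6.17, 6.49 and 7.08 (difference 0.60, SE 0.31), with WT replicate 3 just below the other group, and the difference was 0.39 without WT replicate 1. Itga9, which binds tenascin and osteopontin, had 5.66, 5.33 and 5.23 against 6.25, 5.74 and 5.76, a difference of -0.51 (SE 0.29, adjusted p = 0.673) without overlap. Itgav stood at 6.59 ± 0.20 against 6.65 ± 0.33 (difference -0.065, 95% interval -0.71 to 0.58). The leukocyte chains Itgal (-0.19), Itgax (-0.37) and Itgae (-0.10) were dim in both groups, and Itgae turned higher under both quantile normalization and adjustment for array spread. Genes of monocytes and dendritic cells, which carry Itgax, lay lower in 11 of 13 cases, at a median of -0.37. Their mean levels were 6.75 to 7.15 against 7.03 to 7.54. Clec9a (0.49) and Lyz2 (0.40) lay higher. On the lower side 3 of the 13 had an unadjusted p under 0.05 in limma, against 1.33% of all probe sets. Of the 13, 6 were dimmer, and 74.3% of all dimmer probe sets lay lower. The part of those cells in the Itgax value was not tested. Itgb1bp1, an inhibitor of beta-1 integrin activation that the symbol rule also took, had 6.10, 7.70 and 6.91 against 6.65, 6.07 and 5.55 (difference 0.81, SE 0.43).

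**Figure D4:**
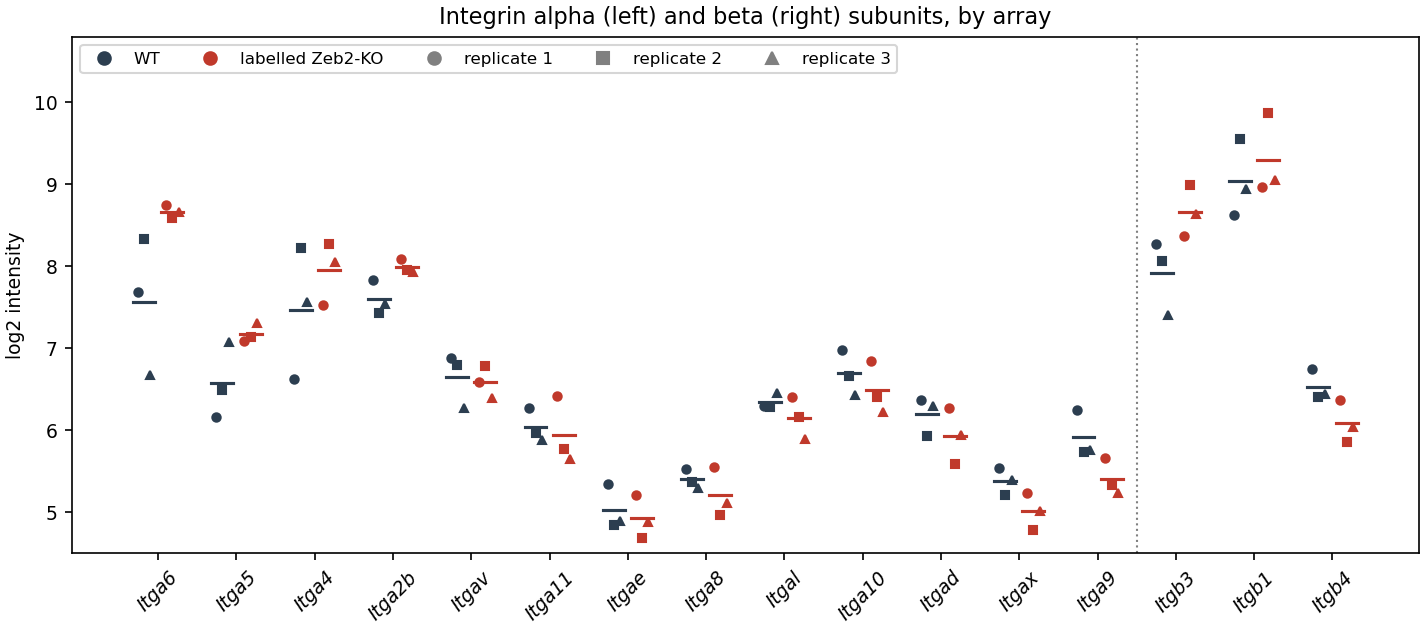
Log2 intensity of 13 integrin alpha and 3 beta chains by array (WT dark, labelled Zeb2-KO red, 1 symbol per replicate number, lines for group means). Itga6 shows the widest separation, with means of 8.66 and 7.56, and most dimmer chains have WT replicate 1 on top. Levels of different chains are not comparable, since each probe set has its own brightness.

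Cadherins and protocadherins were dim throughout. All 6 cadherins and all 11 protocadherins lay below the median level and all 17 lay lower in the Zeb2-KO-labelled arrays, at a median of -0.32, as they did with quantile normalization (median -0.23), but 9 of 17 after adjustment for array spread (median -0.056). None had an unadjusted p under 0.05. Cdh2, N-cadherin, the mesenchymal counterpart of E-cadherin, had 4.94, 4.32 and 4.25 against 5.05, 4.31 and 4.70, a difference of -0.18 that turned to 0.23 with the covariate. Cdh23, a cadherin of hair cell tip links, did not overlap, at 5.29 ± 0.16 against 5.74 ± 0.20 (difference -0.46, adjusted p = 0.673). Among the 17, only Pcdh7 had WT replicate 1 as its lowest WT array, with 5.88, 6.37 and 5.85 against 6.11, 6.97 and 6.67. Its difference of -0.55 (SE 0.32, adjusted p = 0.673) was -0.96 (SE 0.25) after adjustment for array spread and -0.79 without WT replicate 1. The clustered protocadherin Pcdhb12 had 4.35, 4.14 and 3.89 against 4.94, 4.79 and 4.31 (difference -0.55).

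Among the desmosomal cadherins Dsg2 and Dsc2, the pair found outside stratified epithelia, lay higher although they were dim. Dsg2 had 5.75, 6.01 and 5.73 in the Zeb2-KO-labelled arrays and 5.36, 5.51 and 5.12 in WT (difference 0.50, SE 0.28). Dsc2 had 5.43, 6.25 and 5.91 against 5.34, 5.41 and 5.42 (difference 0.47, SE 0.30, and 0.28 without Zeb2-KO replicate 2). Epcam, the epithelial cell adhesion molecule, had 5.97, 5.94 and 5.66 against 5.52, 5.29 and 5.46 (difference 0.44, SE 0.27). All 3 were without overlap, on the side opposite to most dim probe sets, and all had an adjusted p of 0.673 in limma. With quantile normalization they lay at 0.63, 0.58 and 0.56, and after adjustment for array spread at 0.36, 0.17 and 0.51. Dsg3, of stratified epithelia, lay lower without overlap, at 4.29 ± 0.16 against 4.77 ± 0.24. The grainyhead factors, which drive epithelial gene programmes, lay lower, with Grhl1 at -0.42, Grhl2 at -0.33 and Grhl3 at -0.23, the last turning to 0.066 after adjustment for array spread.

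None of the mesenchymal genes Vim, Snai1, Snai2, Snai3 and Twist1 reached an adjusted or unadjusted p under 0.05 in limma, in either direction. Vim, the intermediate filament protein of mesenchymal and blood cells, had 8.19, 8.30 and 9.0 in the Zeb2-KO-labelled arrays and 8.90, 9.22 and 8.48 in WT, a difference of -0.37 (SE 0.33, 95% interval -1.10 to 0.36). It turned to 0.23 with array weights. The factors Snai1 (-0.17), Snai2 (-0.036), Snai3 (-0.22) and Twist1 (-0.34), repressors that act on E-cadherin like the Zeb proteins, all overlapped between groups. Snai2 turned higher with quantile normalization, and both Snai1 and Snai2 after adjustment for array spread. Twistnb, an RNA polymerase I subunit beside Twist1 that the symbol rule also took, had 7.02, 7.75 and 7.70 against 7.91, 7.58 and 6.04.

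**Figure D5:**
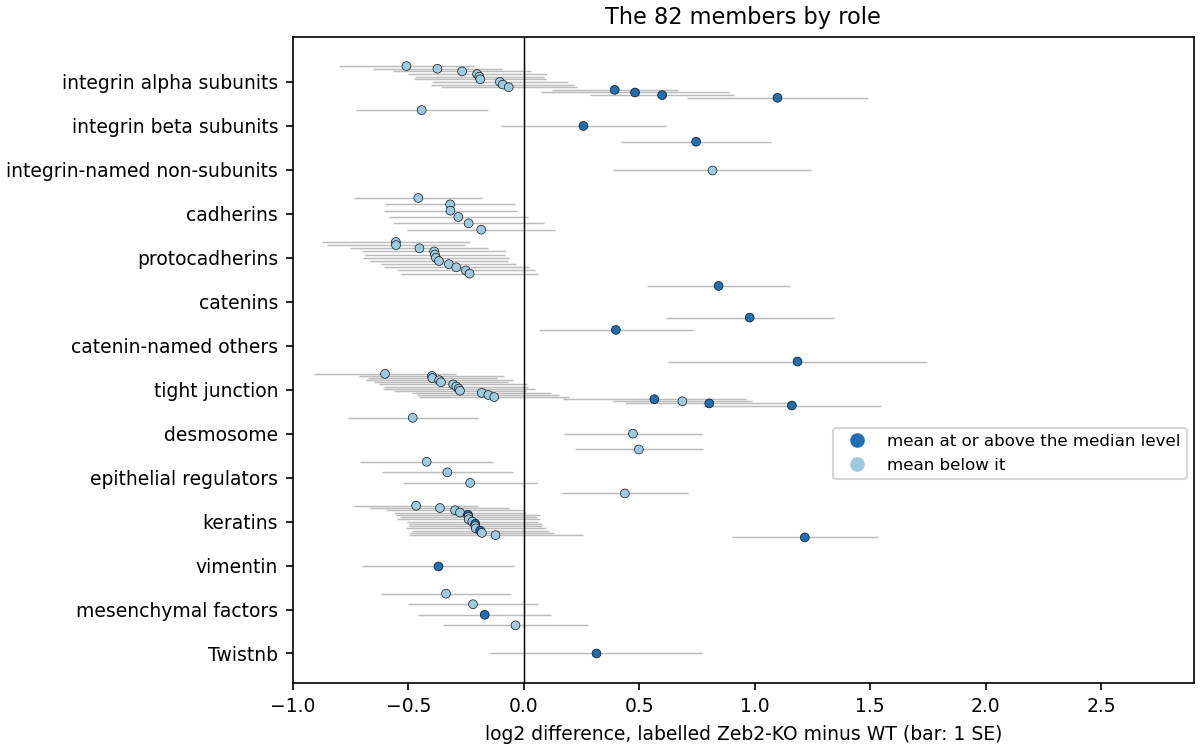
Difference (log2, labelled Zeb2-KO minus WT) for each of the 82 genes by role, with 1 SE as a bar, for brighter (dark) and dimmer (light) probe sets. Catenins lie right of 0, cadherins and protocadherins left of it, and Krt18 stands 1.22 right of 0 while the other 14 keratins lie left, 11 of which turn right after adjustment for array spread, as do 8 of the 17 cadherins and protocadherins.

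The genes around these families were read from 4 further lists. Of 22 measured genes of integrin activation and focal adhesion, 15 (68.2%) lay higher (median 0.25), and 17 of the 22 were brighter probe sets. Among all brighter probe sets 63.5% lay higher (median 0.18), close to that share. An unadjusted p under 0.05 was reached by 4 higher genes and no lower one, against 5.69% and 1.33% of all probe sets and 8.69% higher among the brighter. After adjustment for array spread 1 higher and 1 lower gene reached it, at a median of 0.12. With quantile normalization 12 lay higher, at a median of 0.094. Fyb, the adaptor ADAP that couples receptors to integrin activation, had 10.63, 10.74 and 10.28 against 8.11, 9.99 and 8.74 (difference 1.60, SE 0.43, adjusted p = 0.581). Lims1, the adaptor PINCH-1 of the integrin-linked kinase complex, lay at 1.47 (0.90 without WT replicate 1). The actin crosslinker gene Actn1 had 6.31, 6.69 and 6.70 against 5.79, 5.78 and 5.79 (difference 0.78, SE 0.27, adjusted p = 0.656), and Vcl, vinculin, lay at 0.78. All 4 were without overlap, and WT replicate 1 was the lowest array for Fyb and Lims1.

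Of 13 integrin ligands and counter-receptors, 4 lay higher and 9 lower (median -0.18), but 8 lay higher after adjustment for array spread (median 0.055), and none had an unadjusted p under 0.05 in either fit. Vwf, a ligand of the platelet integrin, lay at 0.58, and the collagen genes Col1a1, Col1a2 and Col4a1 at -0.35, -0.34 and -0.32. Of 18 other junction components 8 lay higher and 10 lower (median -0.046, which turned to 0.038 with quantile normalization), 1 on each side at an unadjusted p under 0.05. The lower one was Prkcz, an atypical protein kinase C of cell polarity, with 5.34, 5.30 and 5.24 in the Zeb2-KO-labelled arrays and 5.73, 7.65 and 8.20 in WT (difference -1.90, SE 0.52, adjusted p = 0.581). WT replicate 1 lay near the other group, and without it the difference was -2.63 and passed (adjusted p = 0.00512). Without WT replicate 3 it was -1.40. The other was Tspan8, a tetraspanin found in complexes with integrins, with 6.10, 7.11 and 6.32 against 4.77, 5.84 and 4.71 (difference 1.40, SE 0.39, adjusted p = 0.581). Prkci, the relative of Prkcz, lay at 0.65 and Cd99l2 at 0.86.

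Of 19 regulators of epithelial-mesenchymal transition outside the 82 genes, 10 lay higher and 9 lower (median 0.21), and Zeb2 was the only one at an unadjusted p under 0.05. Zeb1, its relative, had 7.48, 8.28 and 8.32 against 6.53, 7.70 and 8.51, a difference of 0.44 that turned to -0.082 without WT replicate 1 and to -0.11 after adjustment for array spread. Klf8, a repressor of E-cadherin, lay at 0.69, Tgfb1 at 0.49 and Klf4 at -0.32. The median of this list was 0.0054 with quantile normalization and turned to -0.056 without WT replicate 1.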

How the data were processed

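RNA of each sorted sample went through Nugene Ovation Pico amplification and onto 1 Affymetrix array, per the labels' protocols. The authors deposited 1 intensity per probe set and array. The submitters' processing notes name RMA, without a version, and the values (4.29 to 9972) are on a linear scale, so log2 was taken. Intensities carry no read depth, and the 3 arrays per group limit the precision. Of 20220 probe sets, 5610 below the first annotated identifier were left out as a control block and 14610 were tested. Of these 11229 had 1 symbol, 766 several and 2615 none. All 82 genes matched RefSeq (GRCm38.p6) by gene identifier.

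limma 3.58.1 (R 4.3.3) was fitted to all 6 arrays without trend, with Benjamini-Hochberg adjustment over all probe sets (df 4 residual, 6.87 prior). The scripts were tested on simulated data. Differences are log2, labelled Zeb2-KO minus WT.

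The genes, lists and alternatives were chosen with earlier results of these data known. Named genes are the 8 with the smallest p in each direction, 29 measured genes of a list of 54, and up to 4 per further list. Any other gene in the text was picked with its values in view. Alternatives were a level filter, quantile normalization, centring, array spread as a covariate, trended or robust variance, array weights, a replicate block, the control block kept, and leaving out arrays.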

Additional observations from a re-analysis of the deposited data

How the results depend on the processing

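No gene of the 82 passed an adjusted p of 0.05 in limma under any alternative except array weights, where 9 did (Krt18, Itga6, Ctnnd1, Ctnnb1, Jam2, Itgb3, Cldnd1, Cldn12 and Itgb1bp1), among 978 probe sets in all (6.69%). That fit stopped before it converged and put a weight of 8.22 on Zeb2-KO replicate 3. It gave 13 genes past an unadjusted p of 0.01 with at least 1.5-fold (15.9%, against 12.8% of all probe sets). At an unadjusted p under 0.05 it gave 14 higher (17.1% against 17.2%) and 19 lower (23.2% against 15.6%). Among the named genes it turned Vim to 0.23, Cldn13 to 0.38 and Snai2 to 0.042. The count of 8 genes higher at an unadjusted p under 0.05 was 5 with the control block kept. It was 2 after adjustment for array spread, where 1 was lower, beside 2.51% and 2.63% of all probe sets. The filter at the median level kept only the 20 brighter genes, of which 5 lay higher at that threshold, beside 7 of the same 20 in the main fit. For the filter, the control block and the trended variance the share of all probe sets is not given here. With a trended variance 1 was lower. With quantile normalization no gene passed an unadjusted p of 0.01 with 1.5-fold (0 against 1).

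Adjustment for array spread moved the median difference to 0.057 over the 82 genes and to 0.033 over the dimmer ones. It reversed 38 of the 82 genes, 35 to higher and 3 to lower. The genes named by rule that reversed, Zeb1 and Cd99l2 from outside the 82 included, were Itga4 (-0.21), Itgae (0.21), Itgb1 (-0.32), Cdh2 (0.23), Cldn13 (0.072), Snai1 (0.11), Snai2 (0.37), Zeb1 (-0.11) and Cd99l2 (-0.0097). Quantile normalization reversed 6 of the 82, of which the rule names Itgae (0.058), Cldn13 (0.035) and Snai2 (0.030). Without the arrays of raised Y-linked signal, the named genes Itgav (0.050), Cldn13 (0.099) and Snai2 (0.061) reversed. The cause of these reversals was not tested.

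With 1 array left out, the count past an unadjusted p of 0.01 with 1.5-fold ran from 0 to 6, the genes higher at an unadjusted p under 0.05 from 4 to 11 and the lower ones from 0 to 1. Among the named genes, signs turned within the ranges of Itgav (-0.25 to 0.050), Itgae (-0.24 to 0.056), Itgb1 (-0.030 to 0.51), Cldn13 (-0.40 to 0.061), Snai2 (-0.25 to 0.16) and Zeb1 (-0.082 to 0.91). Of 837 values of single genes under an alternative, 793 kept their direction and their side of the threshold, 29 reversed and 15 passed only there. Those 15 all came from the array weights fit, which had not converged, except that of Prkcz without WT replicate 1.

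Deviations of arrays with the same replicate number correlated at 0.36, 0.41 and 0.047, and those with different numbers at -0.38 to 0.030. Each array thus correlated best with its own number. The labels do not say that the numbers pair the samples, so the main fit left the number out. In both groups replicate 1 had the raised Y-linked signal and the narrowest spread, and replicate 2 the widest spread. What part these have in the correlations, and what else arrays of 1 number share, was not tested. With the replicate number as a block 0 genes passed an adjusted p of 0.05, and 2 (2.44%) passed an unadjusted p of 0.01 with 1.5-fold, beside 2.8% of all probe sets. At an unadjusted p under 0.05, 10 lay higher (12.2%, against 9.69% of all probe sets) and 9 lower (11%, against 8.07%). The main fit, without the block, had 8 higher and 0 lower. Each gene has 1 probe set, so other rules for choosing a probe set give no separate value. The 3 arrays a group limit the precision of every value.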
